A study of Homo sapiens with 6 samples.

Results

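The genes described here are 58 genes of human chromosome 10 whose signals were, as a group, higher in the melanoma line WM266-4 than in the melanoma line WM115. They came from a list of 59 symbols chosen with earlier results of these same arrays known, on the difference between the lines in each repeat, and 1 listed symbol, BMI1, was not found in the gene-named table. The 58 genes found are members of a table of 17766 genes. WM266-4 was derived from a skin metastasis and WM115 from a primary skin tumour. Both lines were grown in the same medium, DMEM with foetal bovine serum, and neither carried a labelled transgene, knockdown or treatment. There were 3 biological repeats of WM266-4 and 3 of WM115, and total RNA of each was measured on its own array. Each group is a single established line, so every difference below is a difference between these lines and not between metastases and primary tumours as classes.

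Chromosome 10 carries several genes known from melanoma and other tumours, and loss of chromosome 10 material is a well known change in melanoma. Genes that sit on the same chromosome can shift together when the number of copies of that chromosome differs between cells, and they can also shift for reasons that act on each gene apart. DNA copy number was not measured here. The members range over many housekeeping functions and include ribosome assembly helicases, a pyrophosphatase, DNA repair nucleases, mitochondrial proteases and vesicle coat proteins.

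The values are log2 signals after robust multi-array averaging (RMA), and a difference is WM266-4 minus WM115 on that log2 scale, so a difference of 1 stands for a 2-fold higher signal. Levels of different genes come from different probes and were not set against each other. Genes whose mean over the 6 arrays was under 3.972 log2, the 30th percentile, were not tested, which left 12436 genes, and all 58 members passed, each with a WM115 mean above that level. A gene was called when limma, fitted over all tested genes with line and array version as terms, gave a Benjamini-Hochberg adjusted p under 0.05. The 6 arrays had medians of 6.122 to 6.181 log2 over the tested genes. Of the melanocyte lineage markers, TYR, which encodes tyrosinase of the melanin pathway, was at 10.19, 10.32 and 9.73 in WM266-4, against 2.92, 3.43 and 3.17 in WM115. PMEL, DCT, MLANA and MITF were also called higher in WM266-4, with differences of 2.83 to 6.43, while SOX10 (0.19) and S100B (0.15) were not called. Among markers of other cell types, PTPRC, CDH5, KRT5, KRT14 and DCN were below the level for testing, LUM was not called, and CD68, KDR, DSP and PDGFRB were called lower in WM266-4, by -1.76, -1.91, -1.48 and -1.02. The WM115 means of TYR, PMEL, DCT and MLANA and the WM266-4 means of DSP and PDGFRB were under 3.972 log2. These markers passed the filter through the brighter line, and the size of their differences depends on a signal near the bottom of the scale. Whether the state of the lineage genes plays a part in the chromosome 10 differences was not tested.

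The promoters of the members were read from RefSeq on GRCh38.p14 as windows of 300 bases, 250 before and 50 after the start, and 50 of the 58 members had an entry. The 4 windows shown here belong to members with an entry. Among members with an entry, NUDT5 and CDC123 are the pair whose windows overlap head to head. PIP4K2A and HERC4 lie at the top and at the bottom of the differences of members with an entry. Capitals mark, on either strand, the GC box GGGCGG, the ETS core CCGGAAG and the NRF1 core (GCGC, then any base, then TGCGC), and each sequence runs 5′ to 3′ on the strand of its gene.
NUDT5, chr10:12195842-12196141, minus strand: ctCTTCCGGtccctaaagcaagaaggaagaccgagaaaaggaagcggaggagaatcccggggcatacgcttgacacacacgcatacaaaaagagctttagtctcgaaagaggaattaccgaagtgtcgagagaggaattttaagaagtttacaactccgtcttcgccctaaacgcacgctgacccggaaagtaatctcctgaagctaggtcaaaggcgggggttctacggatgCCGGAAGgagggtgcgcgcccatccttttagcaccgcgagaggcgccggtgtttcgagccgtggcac
CDC123, chr10:12195938-12196237, plus strand: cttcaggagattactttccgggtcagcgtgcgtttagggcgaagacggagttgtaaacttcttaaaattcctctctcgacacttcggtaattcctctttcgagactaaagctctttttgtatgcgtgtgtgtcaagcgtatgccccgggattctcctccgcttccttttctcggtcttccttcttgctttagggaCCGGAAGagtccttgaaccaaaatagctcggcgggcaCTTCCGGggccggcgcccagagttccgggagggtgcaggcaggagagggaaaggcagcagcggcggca
PIP4K2A, chr10:22714529-22714828, minus strand: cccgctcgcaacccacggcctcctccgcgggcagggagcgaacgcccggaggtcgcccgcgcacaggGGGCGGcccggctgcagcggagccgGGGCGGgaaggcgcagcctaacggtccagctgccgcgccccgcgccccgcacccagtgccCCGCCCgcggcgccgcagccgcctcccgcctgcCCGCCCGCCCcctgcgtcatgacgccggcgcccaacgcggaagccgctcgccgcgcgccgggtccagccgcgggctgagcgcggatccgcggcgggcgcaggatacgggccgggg
HERC4, chr10:68075234-68075533, minus strand: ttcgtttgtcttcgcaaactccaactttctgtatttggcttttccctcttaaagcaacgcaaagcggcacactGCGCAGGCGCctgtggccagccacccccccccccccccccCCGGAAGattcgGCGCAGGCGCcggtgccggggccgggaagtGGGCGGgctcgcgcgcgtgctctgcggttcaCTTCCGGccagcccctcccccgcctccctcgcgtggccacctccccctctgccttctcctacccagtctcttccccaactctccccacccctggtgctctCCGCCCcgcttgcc
NUDT5 and CDC123 are transcribed away from each other and their windows share 204 bases. The PIP4K2A window is GC-rich at 82.7% G or C, with 5 GC boxes and no ETS or NRF1 core. The HERC4 window holds 2 of each of the 3 motifs.

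Over the 50 member windows the median G or C content was 65.7%, against 65.3% over the 10104 windows of all tested genes. The median ratio of observed to expected CpG was 0.916 in member windows, against 0.834 over all tested genes. A GC box occurred in 78.0% of member windows, against 69.6% over all tested genes and 44.5% over all 27305 promoter windows. The NRF1 core occurred in 13 of the 50 member windows (26%), 11.7% of the windows of the other tested chromosome 10 genes, 11.3% over all tested genes and 6.29% over all promoters. The ETS core was in 14 of the 50 member windows (28%), 13.7% of those of the other chromosome 10 genes, 18.4% over all tested genes and 10.6% over all promoters. The CCAAT box (CCAAT) was in 44.0% of member windows, against 36.5% over all tested genes, and the TATA box (TATAAA) was in 2.0%, against 5.88%. These shares describe letters in the windows, read on both strands, with overlaps between motifs allowed.

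Signals were higher in WM266-4 for 56 of the 58 members, and 38 of them (65.5%) were called higher, where 26.9% of all tested genes were called, 13.6% higher and 13.3% lower. The members were chosen on this contrast, so their counts and differences are given as a description. This holds also for the role groups and stretches below, and the same shares over all tested genes stand beside their counts. The count of 38 was 20 without WM266-4 repeat 2, 22 without WM266-4 repeat 3, 21 without WM115 repeat 2 and 24 without WM115 repeat 3, where 5.5% to 7.32% of all tested genes were called higher. The median member difference was 0.54 log2, with quartiles of 0.34 and 0.73 and a range of -0.09 to 1.19. Over all tested genes the median was 0.01. In the first pair of repeats the median member difference was 0.58, in the second 0.48 and in the third 0.46. WM266-4 was above WM115 in all 3 pairs for 51 members, where the share over all tested genes was 30.1%. For 49 members all 3 WM266-4 arrays lay above all 3 WM115 arrays, where that held for 26.4% of all tested genes. Only PIP4K2A, PPA1 and DCLRE1C reached a difference of 1 log2, so the shift was modest for most members.

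**Figure D1:**
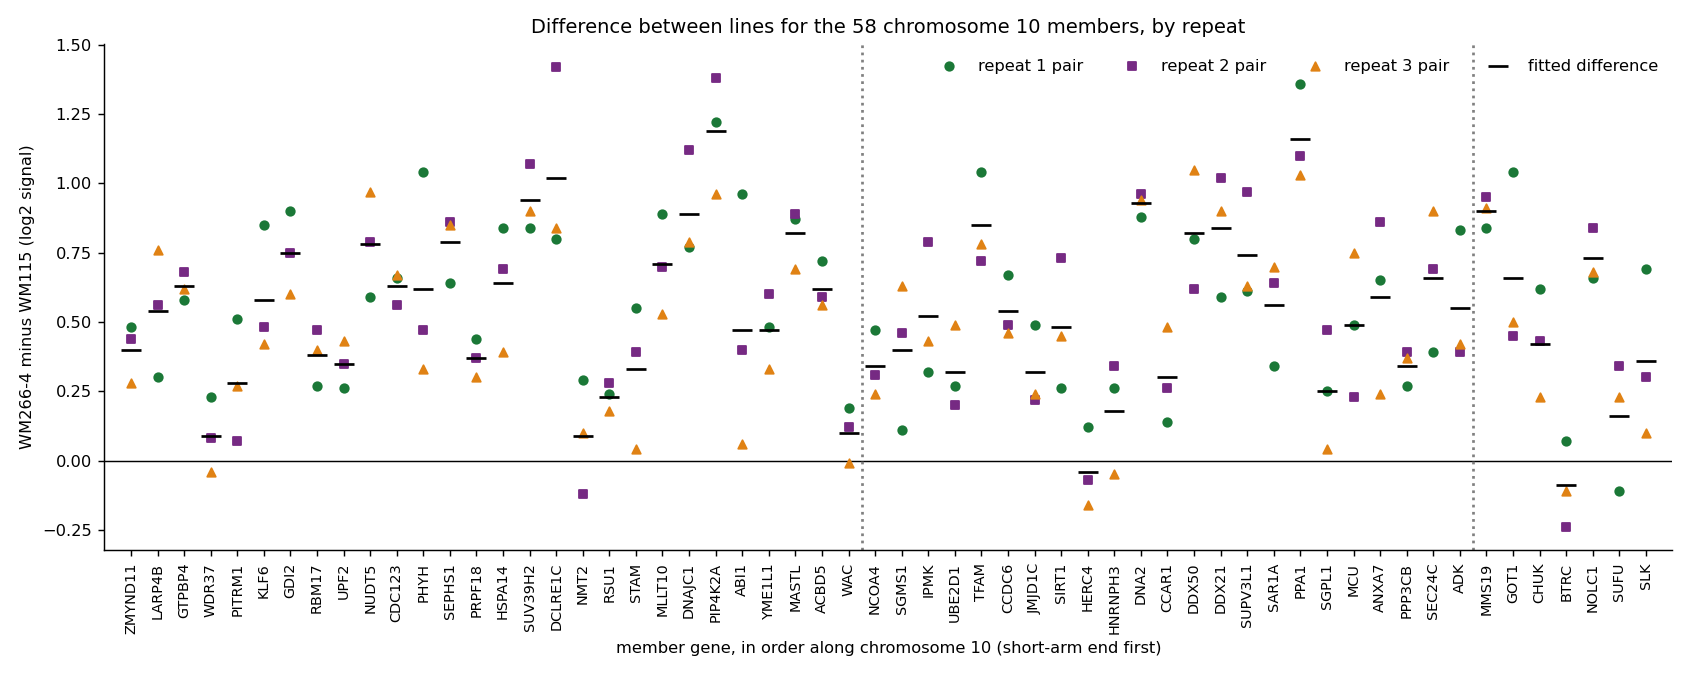
Difference WM266-4 minus WM115 (log2 signal, vertical axis) of the 58 members in their order along chromosome 10 (horizontal axis), with a symbol for each of the 3 pairs of repeats and a bar for the fitted difference. Dotted lines part the stretches up to WAC, NCOA4 to ADK, and MMS19 to SLK, and 51 members lie above 0 in all 3 pairs.

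Among 4 members that act in DNA repair, replication and entry into mitosis, all were called higher, with a median difference of 0.91. Of all 58 members 65.5% were called higher, and of all tested genes 13.6%. DCLRE1C, which encodes the Artemis nuclease of end joining and V(D)J recombination, was at 5.68, 6.05 and 5.67 in WM266-4, against 4.88, 4.63 and 4.83 in WM115. The difference was 1.02 ± 0.15 (SE), a 2.03-fold higher signal, and the lowest WM266-4 array stood well above the highest WM115 array. DNA2, a nuclease and helicase that trims Okazaki fragments and resects DNA ends, was at 5.77, 5.8 and 5.84 in WM266-4, against 4.89, 4.84 and 4.91 in WM115. Its 3 pair differences of 0.88, 0.96 and 0.94 lay close together. MMS19, which delivers iron-sulfur clusters to DNA repair and replication enzymes, was at 7.19, 7.22 and 7.28 in WM266-4, against 6.36, 6.28 and 6.37 in WM115. MASTL, the Greatwall kinase that restrains the phosphatase PP2A in mitosis, was at 8.04, 8.08 and 7.95 in WM266-4, against 7.17, 7.2 and 7.25 in WM115. None of these 4 genes had overlapping groups, and the fitted differences of MMS19 and MASTL were 0.9 ± 0.1 and 0.82 ± 0.1 (SE).

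The 13 members that process RNA, translate it or build ribosomes had a median difference of 0.63, and 10 of them were called higher. DDX21 and DDX50, neighbouring and closely related genes of nucleolar RNA helicases, both rose. DDX21 was at 7.77, 7.89 and 8.05 in WM266-4, against 7.18, 6.87 and 7.15 in WM115. DDX50 was at 6.28, 6.16 and 6.47 in WM266-4, against 5.48, 5.54 and 5.42 in WM115. The fitted differences were 0.84 ± 0.14 for DDX21 and 0.82 ± 0.12 for DDX50 (SE), and no array of either line entered the range of the other. GTPBP4, a GTPase of large ribosomal subunit assembly, was at 6.66, 6.73 and 6.69 in WM266-4, against 6.09, 6.05 and 6.07 in WM115, a difference of 0.63 ± 0.09 (SE) with little scatter. NOLC1, a nucleolar phosphoprotein that binds small nucleolar ribonucleoproteins, was at 7.95, 7.9 and 8.11 in WM266-4, against 7.28, 7.06 and 7.43 in WM115. Its groups did not overlap either, and its difference was 0.73 ± 0.13 (SE).

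CDC123, a chaperone that assembles the translation factor eIF2, was at 8.76, 8.67 and 8.83 in WM266-4, against 8.1, 8.1 and 8.16 in WM115. NUDT5, the ADP-ribose pyrophosphatase encoded on the other side of the promoter stretch shown above, was at 7.78, 7.92 and 7.95 in WM266-4, against 7.19, 7.13 and 6.98 in WM115. The differences of these head-to-head genes were 0.63 ± 0.1 for CDC123 and 0.78 ± 0.11 for NUDT5 (SE), and neither had overlapping groups. SUPV3L1, the RNA helicase of the mitochondrial degradosome, differed by 0.74 ± 0.12 (SE). SEPHS1, a relative of selenophosphate synthetase, differed by 0.79 ± 0.1 (SE), HSPA14, a ribosome-associated chaperone, by 0.64 ± 0.13 (SE), and LARP4B, which binds messenger RNA, by 0.54 ± 0.12 (SE). RBM17, a splicing factor, was the smallest of the called members of this group at 0.38 ± 0.1 (SE). The splicing factor PRPF18 (0.37), the nonsense-mediated decay factor UPF2 (0.35) and the splicing regulator HNRNPH3 (0.18) were not called, and of these HNRNPH3 had overlapping groups.

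Of 9 chromatin and transcription members, 6 were called higher and the median difference was 0.48. SUV39H2, a histone H3 lysine methyltransferase of heterochromatin, was at 6.38, 6.44 and 6.51 in WM266-4, against 5.54, 5.37 and 5.61 in WM115. TFAM, which packages mitochondrial DNA and starts its transcription, was at 5.46, 5.41 and 5.24 in WM266-4, against 4.42, 4.69 and 4.47 in WM115. SUV39H2 differed by 0.94 ± 0.11 and TFAM by 0.85 ± 0.13 (SE), with the lines apart on every array. MLLT10, a cofactor of the histone methyltransferase DOT1L, was at 6.19, 6.17 and 5.95 in WM266-4, against 5.3, 5.47 and 5.42 in WM115. KLF6, a zinc finger transcription factor, was at 7.52, 7.3 and 7.36 in WM266-4, against 6.68, 6.82 and 6.94 in WM115. The difference of KLF6 in its first pair, 0.85, exceeded those of the other pairs, 0.48 and 0.42. SIRT1, an NAD-dependent deacetylase, was at 6.15, 6.35 and 6.3 in WM266-4, against 5.89, 5.63 and 5.85 in WM115, and ZMYND11, a reader of methylated histone H3 variants, differed by 0.4 ± 0.1 (SE). The demethylase family member JMJD1C (0.32), the coactivator CCAR1 (0.3) and WAC (0.1), an adaptor of histone H2B ubiquitination, were not called. WAC was at 7.46, 7.45 and 7.34 in WM266-4, against 7.26, 7.32 and 7.35 in WM115, and its groups overlapped.

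The 12 members of mitochondria, peroxisomes and metabolism had a median difference of 0.52, with 8 called higher. PPA1, the cytosolic inorganic pyrophosphatase, was at 7.26, 7.24 and 7.01 in WM266-4, against 5.89, 6.14 and 5.98 in WM115. That is a difference of 1.16 ± 0.13 (SE), 2.24-fold, and the gap between the lines was wider than the spread within either. GOT1, the cytosolic aspartate aminotransferase, was at 8.86, 8.61 and 8.58 in WM266-4, against 7.83, 8.15 and 8.07 in WM115. PHYH, the peroxisomal enzyme that starts the breakdown of phytanic acid, was at 5.87, 5.64 and 5.47 in WM266-4, against 4.83, 5.17 and 5.13 in WM115. In both GOT1 and PHYH the first pair differed by 1.04, and the later pairs by 0.45 and 0.5 for GOT1 and by 0.47 and 0.33 for PHYH. ACBD5, a peroxisomal membrane protein that tethers peroxisomes to the endoplasmic reticulum, differed by 0.62 ± 0.12 (SE), and ADK, the adenosine kinase, by 0.55 ± 0.13 (SE). SGMS1, a sphingomyelin synthase of the Golgi (0.4), PITRM1, a mitochondrial peptidase (0.28), SGPL1, the sphingosine phosphate lyase (0.25), and NMT2, an N-myristoyltransferase (0.09), were not called, and NMT2 alone among the 12 had overlapping groups.

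MCU, the pore of the mitochondrial calcium uniporter, was at 6.75, 6.63 and 6.89 in WM266-4, against 6.26, 6.39 and 6.14 in WM115, a difference of 0.49 ± 0.12 (SE) with no overlap. MICU2, a regulatory subunit of the uniporter encoded on chromosome 13, rose by 0.58 ± 0.14 (SE, adjusted p = 0.0287, limma). Its call was lost when repeat 2 or repeat 3 of either line was left out, with an adjusted p of up to 0.12. YME1L1, an inner membrane protease, was at 9.35, 9.44 and 9.26 in WM266-4, against 8.87, 8.84 and 8.93 in WM115, read from the row with the highest mean. This symbol has 38 rows in the table. The other 37 rows had median pair differences of 0.46, -0.2 and -0.14, and with the mean of all rows the YME1L1 difference was 0.04 in place of 0.47, so the value depends on the row.

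In the group of 10 members that work in ubiquitin, kinase and phosphate signalling, 5 were called higher and the median difference was 0.35. PIP4K2A, a lipid kinase that makes phosphatidylinositol bisphosphate, had the largest difference of all members. It was at 7.42, 7.57 and 7.26 in WM266-4, against 6.2, 6.19 and 6.3 in WM115, a difference of 1.19 ± 0.12 (SE) or 2.28-fold, and all WM266-4 arrays were far above all WM115 arrays. CHUK, a catalytic subunit of the kinase that activates NF-kappaB, was at 6.44, 6.44 and 6.17 in WM266-4, against 5.83, 6.01 and 5.94 in WM115. CCDC6, a coiled-coil protein known as a fusion partner of RET, differed by 0.54 ± 0.1, IPMK, an inositol phosphate kinase, by 0.52 ± 0.12, and PPP3CB, a catalytic subunit of the phosphatase calcineurin, by 0.34 ± 0.1 (SE). The kinase SLK (0.36), the ubiquitin-conjugating enzyme UBE2D1 (0.32) and SUFU (0.16), an inhibitor of Hedgehog signalling, were not called.

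HERC4 and BTRC, a pair of ubiquitin ligase components in this group, were the only members with a difference below 0. HERC4, a ligase of the HECT type, was at 6.33, 6.23 and 6.19 in WM266-4, against 6.21, 6.3 and 6.35 in WM115. BTRC, the F-box protein that recruits beta-catenin and NF-kappaB inhibitors for degradation, was at 6.23, 6.12 and 6.09 in WM266-4, against 6.16, 6.36 and 6.2 in WM115. The fitted differences were -0.04 ± 0.1 for HERC4 and -0.09 ± 0.11 for BTRC (SE). Both had overlapping groups and a first pair that ran opposite to the later pairs. These genes did not share the direction of the other 56.

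**Figure D2:**
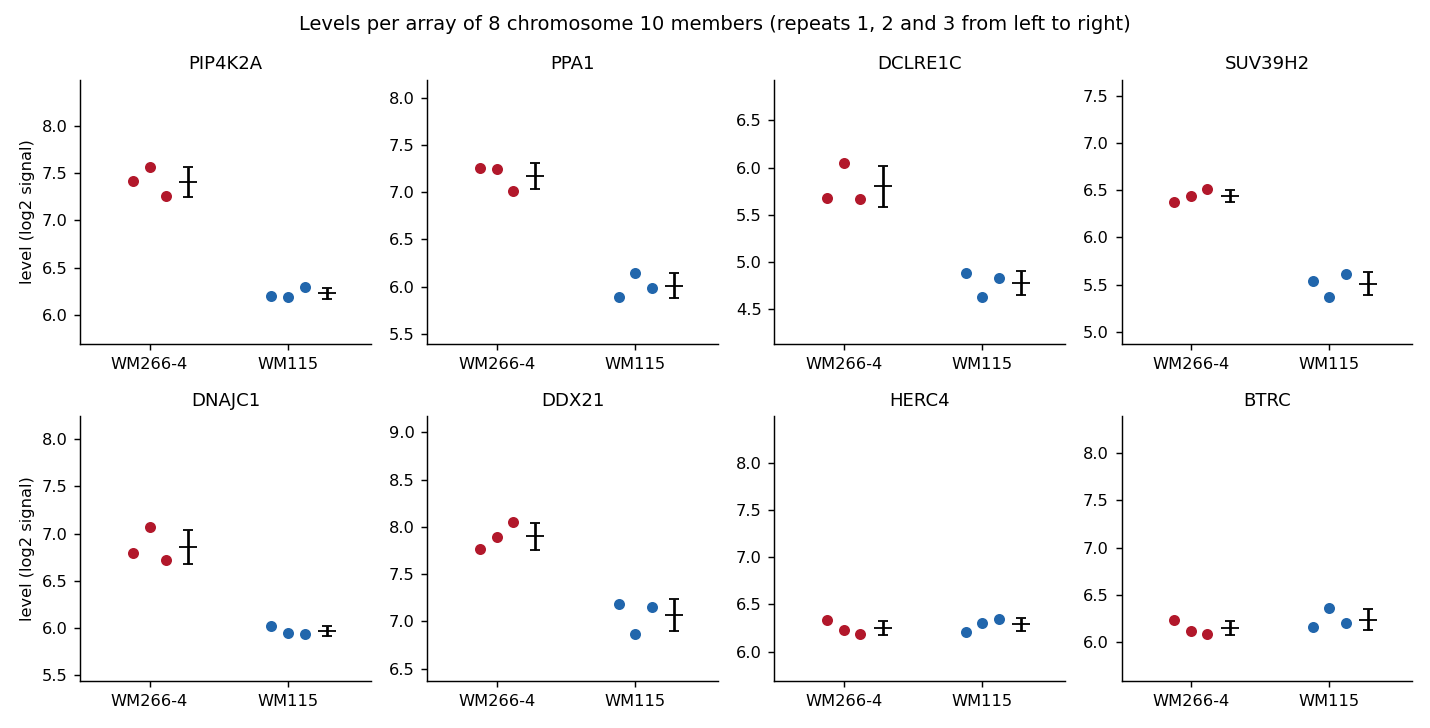
Log2 signal (vertical axis) on each array of WM266-4 (left in each panel) and WM115 (right) for the member with the largest difference in each of the 6 role groups, and for HERC4 and BTRC. Points are arrays in the order of repeats 1, 2 and 3, bars beside them give mean and SD (n = 3), and the lines separate fully in the 6 panels of the first kind and overlap for HERC4 and BTRC.

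Among 10 members of membrane traffic, cytoskeleton and adhesion, 5 were called higher, and the median difference was 0.52. DNAJC1, an endoplasmic reticulum cochaperone, was at 6.79, 7.07 and 6.72 in WM266-4, against 6.02, 5.95 and 5.94 in WM115. GDI2, which extracts Rab GTPases from membranes, was at 9.92, 9.89 and 9.75 in WM266-4, against 9.02, 9.14 and 9.15 in WM115. Their differences were 0.89 ± 0.13 for DNAJC1 and 0.75 ± 0.11 for GDI2 (SE), without overlap. SEC24C and SAR1A encode a cargo-binding coat subunit and the GTPase of the same COPII vesicle coat. SEC24C was at 6.97, 7.13 and 7.24 in WM266-4, against 6.58, 6.44 and 6.34 in WM115. SAR1A was at 8.83, 9.03 and 8.98 in WM266-4, against 8.49, 8.39 and 8.28 in WM115. Both of these COPII genes rose, by 0.66 ± 0.12 and 0.56 ± 0.11 (SE). COPII genes tested on other chromosomes did not share this direction. SEC23A was called higher at 0.39 and SAR1B lower at -0.43. SEC24A (-0.4), SEC24B (-0.26), SEC24D (-0.35), SEC23B (-0.2), SEC31A (-0.34) and SEC13 (-0.03) were not called. ANXA7, a calcium-dependent membrane-binding annexin, also rose, but its WM115 arrays were spread from 6.5 to 7.13, which left the third pair at 0.24.

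ABI1, a subunit of the WAVE complex that drives actin branching, was at 7.96, 7.55 and 7.64 in WM266-4, against 7.0, 7.16 and 7.58 in WM115. Its pair differences were 0.96, 0.4 and 0.06, the groups overlapped and it was not called. NCOA4, the receptor that takes ferritin to lysosomes (0.34), STAM, a subunit of an endosomal sorting complex (0.33), RSU1, an integrin adhesion protein (0.23), and WDR37, a WD-repeat protein (0.09), were not called either. The third pair of ABI1, STAM and WDR37 lay at 0.06, 0.04 and -0.04. The median of this group in the third pair was 0.24, against 0.51 and 0.52 in the other pairs.

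Repeat 1 of both lines was measured on the 1.0 ST array after a different RNA kit, and repeats 2 and 3 on the 2.1 ST array, so array version, kit and repeat cannot be told apart. A limma fit with a line by version interaction called 0 of the 58 members at an adjusted p under 0.05, where 5.48% of all tested genes were called. At an unadjusted p under 0.05 it gave 3 members, PHYH (0.0213), GOT1 (0.0309) and ABI1 (0.0322), where the share over all tested genes was 17.7%. The members were picked for a difference in each repeat, so few unequal differences among them may follow from that choice. Without WM115 repeat 2, ABI1 was called in this interaction, at -0.94 log2 for later minus first pair (adjusted p = 0.0217).

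The members lie in 3 stretches of the chromosome. The 28 members from ZMYND11 near the short-arm end to WAC had a median difference of 0.6, the 23 from NCOA4 to ADK on the long arm 0.52, and the 7 from MMS19 to SLK 0.42. Of these members 19, 15 and 4 were called higher, where 13.6% of all tested genes were. The first stretch had no member below 0, and its lowest values were those of WDR37, NMT2 and WAC. The order of the 3 medians was not tested, and their quartiles overlap, at 0.37 to 0.76, 0.33 to 0.7 and 0.26 to 0.7.

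The shift was not limited to the listed genes. Of the other 394 tested chromosome 10 genes, 153 (38.8%) were called higher and 21 (5.33%) lower, against 13.6% and 13.3% over all tested genes. Their median difference was 0.36 and 318 of them were above 0. The count called higher fell to 71, 88, 87 and 90 without WM266-4 repeat 2, WM266-4 repeat 3, WM115 repeat 2 and WM115 repeat 3, and the count called lower to 7, 9, 7 and 7, while the counts over all tested genes fell to 684 to 910 higher and 716 to 933 lower. The median stayed at 0.32 to 0.37 with any array left out. Without a filter on dim genes the median was 0.14.

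The median of the others was above 0 in each stretch of the chromosome, also where no member lies. Between the members' stretches, from WAC to NCOA4, 9 of 29 tested genes were called higher and 2 lower, with a median of 0.26. Between ADK and MMS19, 34 of 80 were called higher and 3 lower, with a median of 0.38. Beyond SLK, to the long-arm end, 35 of 99 were called higher and 3 lower, with a median of 0.3. Within the members' own stretches the nonmember medians were 0.41 up to WAC, 0.39 from NCOA4 to ADK and 0.38 from MMS19 to SLK. A running median over 21 neighbouring tested genes, members included and so not of the others alone, was above 0 in all 432 windows. It was lowest at 0.1 in the window of PPP2R2D to SPRN near the long-arm end and highest at 0.68 in that of RPP30 to ALDH18A1.

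**Figure D3:**
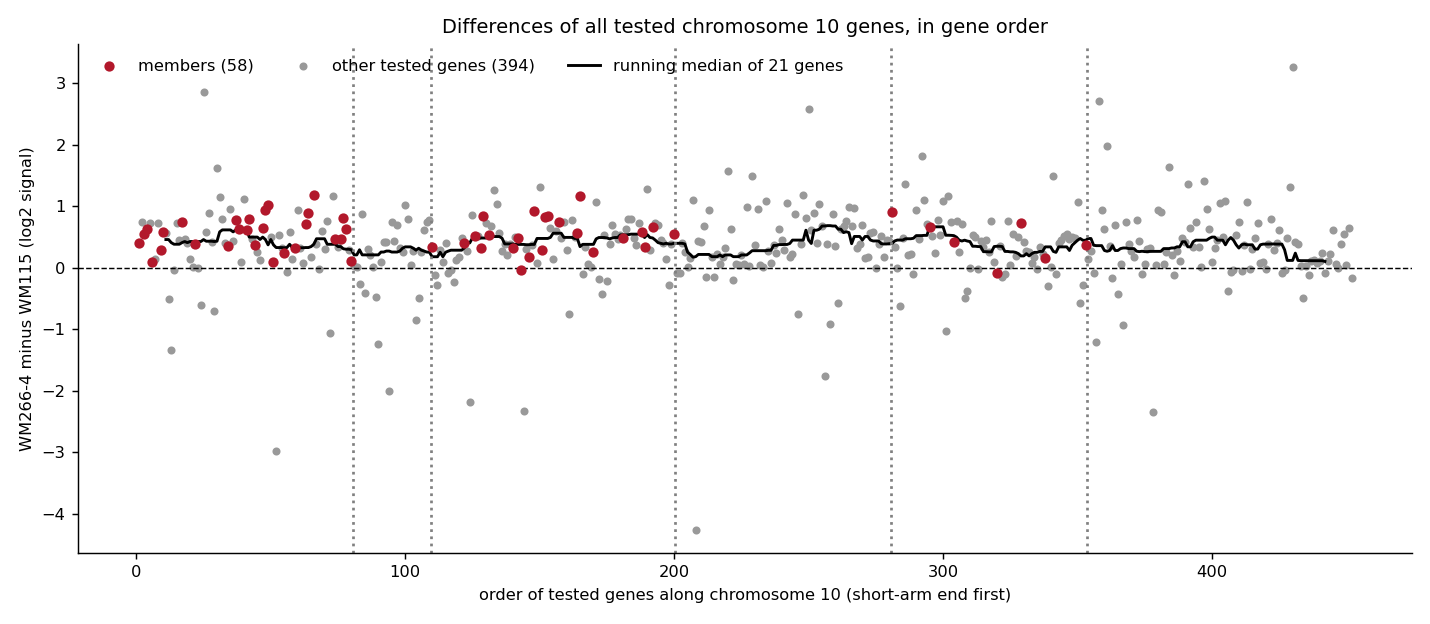
Difference WM266-4 minus WM115 (log2 signal, vertical axis) of the 58 members and the other 394 tested genes in their order along chromosome 10 (horizontal axis), with the running median of 21 genes as a line and dotted lines at the borders of the stretches. The running median stays above 0 throughout, between 0.1 and 0.68, and single nonmembers lie as far out as 3.26 and -4.26.

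Across chromosomes, the tested genes of chromosome 10, members included, had a median difference of 0.38, with 42.3% called higher and 4.65% lower. Chromosome 13 stood further out, with a median of 0.63, 59.9% called higher and 2.36% lower. The other 21 chromosomes had medians of -0.26 to 0.07, and 5.29% to 18.5% of their tested genes were called higher. The chromosome 10 figures with and without the members, 0.38 and 0.36, differ little, so the members did not carry the median of their chromosome.

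**Figure D4:**
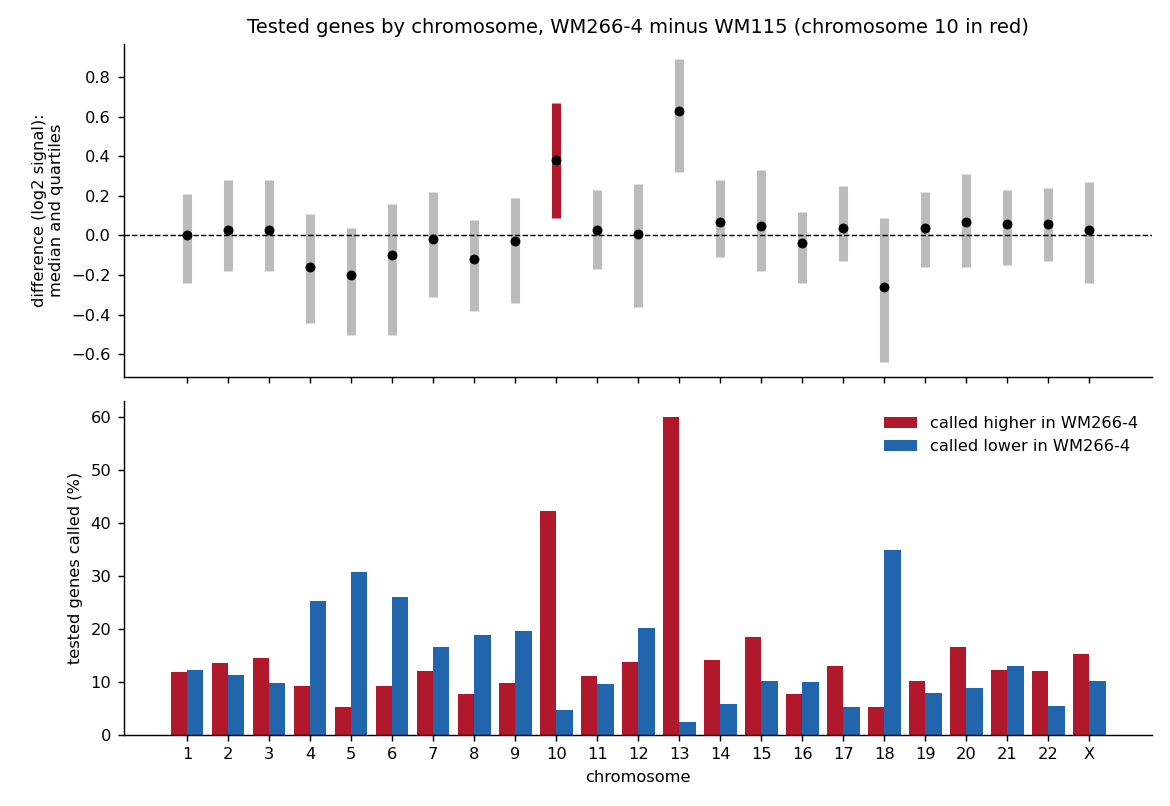
Upper panel, median (point) and quartiles (bar) of the difference WM266-4 minus WM115 (log2 signal) over the tested genes of each chromosome, with chromosome 10 in red; lower panel, the percentage of those genes called higher and called lower by limma. Chromosome 10 has a median of 0.38 and chromosome 13 of 0.63, and the other chromosomes lie between -0.26 and 0.07.

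Some chromosome 10 genes outside the list had larger differences. In 6 of the 10 named here the mean of the dimmer line, WM115 for EBF3 and PPP1R3C and WM266-4 for KCNMA1, FAM171A1, GFRA1 and MYPN, was under the level of 3.972 below which genes were not tested. These 6 passed the filter through the brighter line, and the size of their differences depends on a signal near the bottom of the scale. EBF3, a transcription factor gene beyond SLK, was at 7.01, 7.04 and 6.87 in WM266-4, against 3.6, 3.56 and 3.98 in WM115, a difference of 3.26 (adjusted p = 0.000124, limma). PPP1R3C, a glycogen-targeting phosphatase subunit, rose by 2.58 (adjusted p = 0.000911) and MXI1, an antagonist of MYC, by 1.97 (adjusted p = 0.00509). ITIH5, a hyaluronan-binding matrix protein, and SORCS1, a sorting receptor, differed by 2.85 and 2.71, and their calls were lost without WM266-4 repeat 2, and for ITIH5 also without WM266-4 repeat 3 or WM115 repeat 2 and for SORCS1 without WM115 repeat 3, at adjusted p-values of up to 0.0596 and 0.0505. KCNMA1, a calcium-activated potassium channel, fell to 3.27, 3.39 and 3.33 in WM266-4, against 7.74, 7.67 and 7.34 in WM115, a difference of -4.26 (adjusted p = 3.27e-05). FAM171A1, a membrane protein, fell by 2.97 (adjusted p = 0.00305) and GFRA1, a receptor of the ligand GDNF, by 2.34 (adjusted p = 0.00116). MYPN, a sarcomere protein, and DKK1, a secreted inhibitor of Wnt signalling, differed by -2.33 and -2.18, and lost their calls without WM115 repeat 2, MYPN also without WM266-4 repeat 3 or WM115 repeat 3, and DKK1 also without WM266-4 repeat 2, at adjusted p-values of up to 0.0601 and 0.0661.

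Of 16 tested chromosome 10 genes outside the list that are known from tumours, 4 (25%) were called higher and 2 (12.5%) lower, against 38.8% and 5.33% of the other chromosome 10 genes and 13.6% and 13.3% of all tested genes. The count called higher was 2 without WM266-4 repeat 2, WM266-4 repeat 3 or WM115 repeat 2, and the count called lower was 5 without repeat 1 of either line. MKI67, a chromosome coat protein of cycling cells, was at 9.31, 9.14 and 9.06 in WM266-4, against 7.69, 8.1 and 7.77 in WM115, and rose by 1.31 (adjusted p = 0.00253, limma). FAS, a death receptor, and BUB3, a spindle checkpoint protein, were called at 0.63 and 0.37, MXI1 is given above, and NRP1, a semaphorin and VEGF coreceptor, fell by 1.24 (adjusted p = 0.00903). GATA3, a transcription factor, fell by 0.71 (adjusted p = 0.0105). The FAS call was lost without repeat 2 of either line or WM266-4 repeat 3, and the BUB3 call without any 1 of the 6 arrays, with adjusted p-values of up to 0.0946 and 0.129. VIM (0.15), ZEB1 (-0.41), ITGB1 (-0.48), TCF7L2 (0.27), MAP3K8 (-0.27), NFKB2 (0.27), PARG (0.18), CCNY (0.41), BNIP3 (0.03) and DUSP5 (-0.17) were not called. ZEB1, ITGB1, NFKB2 and DUSP5 were called with repeat 1 of either line left out. RET, FGFR2, MGMT, CXCL12, PLAU and PRKG1 were too dim to be tested.

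A list of 114 complex partners and relatives of the members on other chromosomes, of which 110 were tested, did not share the members' direction. Of these partners, 10 (9.09%) were called higher and 19 (17.3%) lower, against 13.6% and 13.3% over all tested genes, and their median difference was -0.03. Without WM266-4 repeat 2, WM266-4 repeat 3, WM115 repeat 2 and WM115 repeat 3, the counts were 1, 2, 1 and 3 higher and 5, 8, 11 and 8 lower. The 22 paralogues described below are among these partners. With all arrays, they gave 11 of the 19 lower calls and 1 of the 10 higher calls. OMA1, the other inner membrane protease that works beside YME1L1, was at 6.79, 7.09 and 6.78 in WM266-4, against 5.85, 5.76 and 5.74 in WM115, and rose by 1.1 (adjusted p = 0.00256, limma). FEN1 and BLM, a nuclease and a helicase that act with DNA2, were called at 0.56 and 0.43, and DOT1L, the methyltransferase that MLLT10 assists, at 0.48. These last 3 calls were lost without WM266-4 repeat 2 or WM115 repeat 2, DOT1L also without WM266-4 repeat 3 and BLM without any 1 of the 6 arrays, with adjusted p-values of up to 0.0686, 0.12 and 0.0936 for FEN1, BLM and DOT1L. Among partners that fell, GLI2, a Hedgehog factor held by SUFU, was at 6.01, 5.84 and 6.29 in WM266-4, against 7.46, 7.56 and 7.16 in WM115, and fell by 1.34 (adjusted p = 0.00351). Of the other GLI factors listed for SUFU, GLI3 was called higher at 0.39 (adjusted p = 0.0356) and GLI1, at -0.46, was not called. RNF20, the ubiquitin ligase that WAC recruits, fell by 0.91 (adjusted p = 0.00462), while WAC itself was near 0.

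For 22 members 1 listed paralogue each on another chromosome was tested, also counted among the partners above. Of these 22 paralogues, 11 were called lower in WM266-4 (50%, where 13.3% of all tested genes were), 1 was called higher and 10 were not called. Further relatives of members among the partners were left out of this set. Of those, SEC24A, SEC24B, SEC24D, SIRT2, SIRT6, SIRT7, PPP3CC, UBE2D3, KDM3B, PIP4K2C and MLLT6 were not called, so the 50% holds for the listed paralogues alone. The count called lower was 2 without WM266-4 repeat 2, 2 without WM266-4 repeat 3, 4 without WM115 repeat 2 and 3 without WM115 repeat 3 (9.09%, 9.09%, 18.2% and 13.6%), where 5.76% to 7.5% of all tested genes were called lower. Of the 11, 3 lie on chromosome 4 and 3 on chromosome 5, where 25.2% and 30.7% of the tested genes were called lower, with medians of -0.16 and -0.2. The paralogues' median difference was -0.36, and that of their 22 members 0.41, although the members' side was chosen for being higher. SGMS2, the second sphingomyelin synthase, was at 4.08, 3.95 and 3.92 in WM266-4, against 5.25, 5.4 and 5.29 in WM115, and fell by 1.33 (adjusted p = 0.000909, limma), where SGMS1 was at 0.4. PPP3CA, the other broadly expressed calcineurin catalytic subunit, was at 7.09, 6.75 and 6.84 in WM266-4, against 7.97, 8.15 and 8.31 in WM115, and fell by 1.25 (adjusted p = 0.00287), where PPP3CB was at 0.34. In both pairs the paralogue separated the lines without overlap, in the direction opposite to the member. KLF7 fell by 1.1, where KLF6 rose by 0.58, and IKBKB, the partner kinase of CHUK, fell by 0.73, where CHUK rose by 0.42. The KLF7 and IKBKB calls were lost when repeat 2 or repeat 3 of either line was left out, with adjusted p-values of up to 0.0785 and 0.0873.

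PPA2, the mitochondrial pyrophosphatase, was at -0.49 ± 0.12, where the cytosolic PPA1 was at 1.16 (SE, adjusted p = 0.0292, limma). SEPHS2 was at -0.54 beside SEPHS1 at 0.79, SAR1B at -0.43 beside SAR1A at 0.56, and ZMYND8 at -0.55 beside ZMYND11 at 0.4. STK10, KDM3A and FBXW11, paralogues of SLK, JMJD1C and BTRC, were at -0.49, -0.46 and -0.43, beside members that were not called. LARP4 rose by 0.39 (adjusted p = 0.0454) beside LARP4B at 0.54. Of the 12 called paralogues, the PPP3CA call held under all 15 alternatives tried, and the SGMS2 call under the 13 in which SGMS2 was tested. The WM266-4 mean of SGMS2, 3.98 log2, lay close to the level of 3.972 used for the filter. Each of the other 10 calls was lost under at least 1 alternative. The calls of PPA2, LARP4, KDM3A and FBXW11 were lost when repeat 2 or repeat 3 of either line was left out, with adjusted p-values of up to 0.112, 0.157, 0.109 and 0.149. Those of SAR1B and STK10 were lost without any 1 of the 6 arrays, that of SEPHS2 without WM266-4 repeat 2 or 3 or WM115 repeat 3, and that of ZMYND8 without WM266-4 repeat 2 or 3, with up to 0.131, 0.103, 0.0761 and 0.067. The member lay above its paralogue in 21 of 22 pairs, and HERC4 (-0.04) with HERC3 (0.34) was the exception. Since the members were chosen for being higher, this count follows largely from that choice and is given as a description. PIP4K2B, the relative of PIP4K2A, was at -0.08 ± 0.1 (SE, adjusted p = 0.613), next to 1.19 for PIP4K2A.

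**Figure D5:**
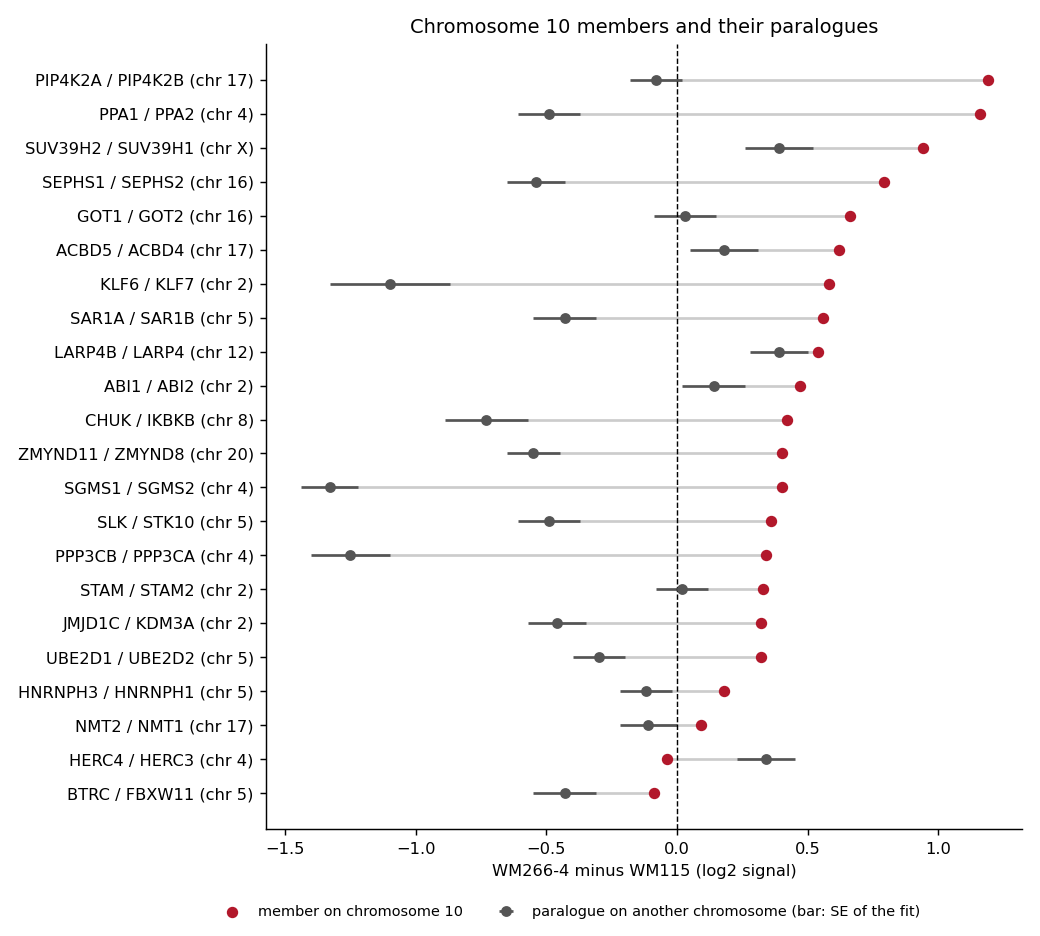
Difference WM266-4 minus WM115 (log2 signal, horizontal axis) of 22 chromosome 10 members (red) and of a listed paralogue of each on another chromosome (grey, with the SE of the fit), a line of the vertical axis for each pair. The members, which were chosen for being higher, lie to the right in 21 pairs, and SGMS2 (-1.33), PPP3CA (-1.25) and KLF7 (-1.1) lie furthest to the left.

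Opposite-strand promoter windows that overlap the window of a member gave neighbours that share a promoter stretch with it. Of 15 members with such a neighbour, ADK faces AP3M1, a subunit of a vesicle adaptor, and MMS19 faces UBTD1, a ubiquitin-like protein, and both neighbours were tested. AP3M1 was at 0.39 (adjusted p = 0.0504, limma) beside ADK at 0.55, and UBTD1 at 0.34 (adjusted p = 0.158) beside MMS19 at 0.9. Neither neighbour was called. With NUDT5 and CDC123, these were the pairs with overlapping windows in which both genes had a tested signal. The 8 members without a promoter entry could not be examined for such neighbours.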

How the data were processed

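Total RNA of 3 biological repeats each of WM266-4 and WM115 was hybridised to gene-level arrays. Per the labels' protocols, the Human Gene 1.0 ST array served for repeat 1, extracted with a miRNeasy micro kit, and the Human Gene 2.1 ST array for repeats 2 and 3, extracted with the GeneAll Hybrid-R miRNA kit. The authors deposited log2 signals made, per the submitters' processing notes, with Affymetrix Expression Console and RMA. In this table each gene's mean over the repeat 1 arrays equalled that over the others to within 0.112 log2 (median 0.00307), so the deposited values were already levelled between array versions for each gene, by a step the sources used here do not give. Such a step couples the levels of a pair of arrays, and whether it changed differences within a pair was not tested.

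The row with the highest mean was kept per symbol (17766 genes from 18887 rows). Of these genes, 17716 were placed through RefSeq GRCh38.p14 by symbol or, failing that, by Ensembl ID or synonym. The files name no genome build. The model, run in R 4.3.3 with limma 3.58.1 (lmFit, eBayes), had line and array version as terms, 3 residual degrees of freedom and Benjamini-Hochberg adjustment over 12436 tested genes. The script was tested on simulated data. The number of arrays, 3 per line, limits the precision.

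The members and the gene lists were chosen with earlier results of these data known. Every member found is named; of the other chromosome 10 genes, the 5 largest called increases and 5 largest called decreases with the same sign in all pairs; all of the tumour list; of the partners, the 5 largest called changes each way; and paralogues set beside a member. Some genes of these lists are not reported here and stay out of the lists' counts. Pairs here follow the repeat numbers alone, and whether those numbers pair the samples could not be told. Deviations of same-numbered arrays correlated at -0.998, -0.262 and -0.396. The version step forces the first value and pushes the others below 0, so they cannot show whether repeats are paired. No gene had the same value on any 2 of the 6 arrays. The alternatives tried were a replicate block, no version term, no or a stricter filter on dim genes (50th percentile), quantile normalization, median centring, the mean of all rows of a gene, a robust prior, the 2.1 ST arrays alone and leaving out each array. Leaving out repeat 1 of either line gives the same fit as the 2.1 ST arrays alone, since the version term takes up the remaining 1.0 ST array. These are not separate checks.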

Additional observations from a re-analysis of the deposited data

How the results depend on the processing

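Across all alternatives, 55 of the 58 members kept a difference above 0 (15 alternatives), the exceptions being NMT2, HERC4 and BTRC, and the member median ran from 0.49 to 0.56 with any array left out, with 52 to 54 members above 0 in all remaining pairs. With the replicate block, whose numbers are not known to pair the samples, 51 members were above 0 in all pairs, the counts called were 1193 higher and 1205 lower over all genes and 113 and 14 for the other chromosome 10 genes, the partners gave 4 higher and 13 lower, and the tumour list 2 higher. Without a version term 19 partners were called higher. Without a filter the median of the other chromosome 10 genes was 0.14; the stricter filter gave 0.42, with 10 called lower, 1 of the tumour list called lower, and stretch medians of 0.27 (WAC to NCOA4), 0.48 (NCOA4 to ADK) and 0.41 (after SLK). The WAC to NCOA4 median was 0.28 after quantile normalization, 0.25 after median centring and 0.23 on the 2.1 ST arrays alone, which gave 0.32 for all other chromosome 10 genes and 5 of the tumour list called lower. Leaving out each array gave 684 to 1973 genes called higher and 716 to 1941 lower, 71 to 165 and 7 to 29 of the other chromosome 10 genes (median 0.32 to 0.37, WAC to NCOA4 0.21 to 0.27), 1 to 13 and 5 to 18 partners, 2 to 4 and 2 to 5 of the tumour list, and 0 to 1 members in the interaction; fewer arrays enter those fits. Uncalled genes turned sign: ABI2 was at -0.01 with the mean of rows and BNIP3 at -0.03 on the 2.1 ST arrays alone, and with any array left out BNIP3 ran from -0.03 to 0.11, DUSP5 from -0.92 to 0.14, STAM2 from -0.02 to 0.05 and GOT2 from -0.07 to 0.12; the cause was not tested. The members called higher were 29 with the block, 45 without a version term and 36 to 38 under the other alternatives that keep all 6 arrays or drop repeat 1. Over the named genes outside the member list, 90 alternative values lost a call and 19 gained a call. The fit shared by the 2.1 ST arrays alone and by leaving out repeat 1 of either line enters these counts under each of those alternatives.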
